A study of Homo sapiens with 17 samples.

Results

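RNF219 and AIFM1 were compared at the places on RNA where both had a peak. RNF219 is a RING-type ubiquitin ligase that binds the CCR4-NOT deadenylase, the enzyme complex that shortens the poly(A) tails of mRNAs. AIFM1 is a flavoprotein of the mitochondrial intermembrane space that can move to the nucleus during cell death. Peaks of 1 RNF219 library and 2 AIFM1 replicates on the same strand were joined into regions where they overlapped by 1 nt or more. A matched region held a peak of all 3 libraries. This gave 1729 matched regions out of 57697 merged regions of the 3 libraries, or 3.00%. Of the matched regions 1687 were nuclear, 2.93% of 57543, and 42 lay on the mitochondrial chromosome (chrM), 27.3% of 154.

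Binding was measured by eCLIP. Proteins are crosslinked to RNA with ultraviolet light (254 nm, 400 mJ per square cm), and an antibody recovers 1 protein together with its RNA. The cells of every library were 293T, a human embryonic kidney line, grown under standard conditions with no other treatment named. Each protein had its own size-matched input, RNA cut from the same gel window without immunoprecipitation, and both AIFM1 replicates were set against 1 AIFM1 input. The whole series held 11 eCLIP libraries and 6 inputs for 6 proteins, and merging all 11 peak lists gave 219602 regions.

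Mitochondrial DNA is transcribed from both strands into long RNAs, which are cut into ribosomal RNAs, transfer RNAs and mRNAs of the respiratory chain. In the peak lists + and - are the strands of the genome sequence to which the RNA corresponds. Nothing in the sources used here names the genes under hg19 positions, so regions are given by position and strand, and no sequence is printed.

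Every value below is the authors' log2 fold of eCLIP over input, in which 0 is the level of the input and 1 is a doubling. Where a library had several peaks in a region, their mean weighted by length was taken. RNF219 was called higher or lower in a region when it lay above or below both AIFM1 replicates by at least 1 on the log2 scale. With 1 RNF219 library no spread between RNF219 samples is known, so no region was tested. The calls compare these libraries, and the difference between the AIFM1 replicates is the only measure of replicate error. The series describes its replicates as biological without saying how the cultures were separated, so that difference may be partly technical. Both AIFM1 replicates share 1 input, so their difference largely leaves out its counting error. RNF219 minus AIFM1 carries the counting error of both proteins' inputs, so the replicate difference is a low measure of its error.

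The peak lists held 24624 peaks for RNF219 and 12042 and 31722 for AIFM1 replicates 1 and 2. Folds behaved as ratios of whole reads times the ratio of input depth to eCLIP depth, which was 0.701 for RNF219 and 1.22 and 0.534 for the AIFM1 replicates. Both read numbers could be settled for 32.3% of the RNF219 peaks in matched regions and for 67.8% and 63.9% of the AIFM1 peaks. Elsewhere only the smallest numbers with that ratio are known, and these are given as "at least". Reads given for a region, and the intervals made from them, are those of the longest peak of each library there, while the folds are means over all its peaks in the region. In some peaks with folds near input the settled numbers are too high multiples of the true reads. This shows where AIFM1 replicate 1 has more reads of the shared input than replicate 2, as at chrM:1618-1652 and chrM:15959-15989. Intervals made from such reads are too narrow. The limit of 10 input reads and the comparison of eCLIP reads per nt below use the same numbers. Total reads per library are unknown. Reads may hold PCR copies, and the 95% intervals below cover counting error only.

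In the matched nuclear regions RNF219 folds were lower than AIFM1 folds. The median log2 fold over the 1687 nuclear regions was -0.51 for RNF219, 0.87 for AIFM1 replicate 1 and 0.68 for AIFM1 replicate 2. RNF219 was above its input in 584 of these regions, and the AIFM1 replicates in 1302 and 1242. Over all nuclear peaks of each list, matched or not, the medians were 1.07 for RNF219 and 1.17 and 0.68 for the AIFM1 replicates. Of those peaks 78.4% were above input in RNF219, and 88.2% and 80% in the AIFM1 replicates. The low RNF219 level thus belongs to the matched regions, not to all its nuclear peaks. RNF219 was called lower in 784 nuclear regions (46.5%) and higher in 75 (4.45%), and the median difference, RNF219 minus the AIFM1 mean, was -1.20. Between the AIFM1 replicates, which share an input, replicate 2 lay at least 1 above replicate 1 in 99 regions (5.87%). It lay at least 1 below replicate 1 in 206 (12.2%).

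The split was retained over the 347 nuclear regions with at least 10 input reads in all 3 libraries, where 17 were called higher and 147 lower, with a median difference of -0.989. Over the 210 nuclear regions in which at least 1 library had a -log10 p of 3 or more, 44 were called higher and 86 lower, with a median difference of -0.445. Of these calls 33.8% were higher, against 8.73% over all nuclear matched regions. Because p is 0 below input, a region enters this set through a library in which it is high. The filter thus bears on the calls themselves. Centring each library on its own nuclear median adds the same amount to every difference and brings the nuclear median difference near 0 by construction. With it 318 nuclear regions were called higher and 218 lower, and the median difference was 0.085. When eCLIP reads per nt, centred in the same way, were compared without the inputs, 32 were called higher and 18 lower. That count covers the 371 nuclear regions with settled reads, all above input, so the measure and the regions changed together.

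On chrM RNF219 was higher than AIFM1 in some regions and lower in others. The medians over the 42 regions were 1.03 for RNF219 and 1.20 and 1.62 for the AIFM1 replicates, and the median difference was 0.05. Its quartiles were -0.95 and 0.96. The median size of the difference was 0.977, against 0.525 between the AIFM1 replicates, which share an input. RNF219 was called higher in 8 regions (19.0%) and lower in 6 (14.3%). AIFM1 replicate 2 lay at least 1 above replicate 1 in 4 chrM regions (9.52%) and at least 1 below it in 0. After centring, which raises every difference alike, 21 chrM regions were called higher and 0 lower. Without AIFM1 replicate 1 the calls were 9 higher and 12 lower, and without AIFM1 replicate 2 they were 13 higher and 6 lower.

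**Figure D1:**
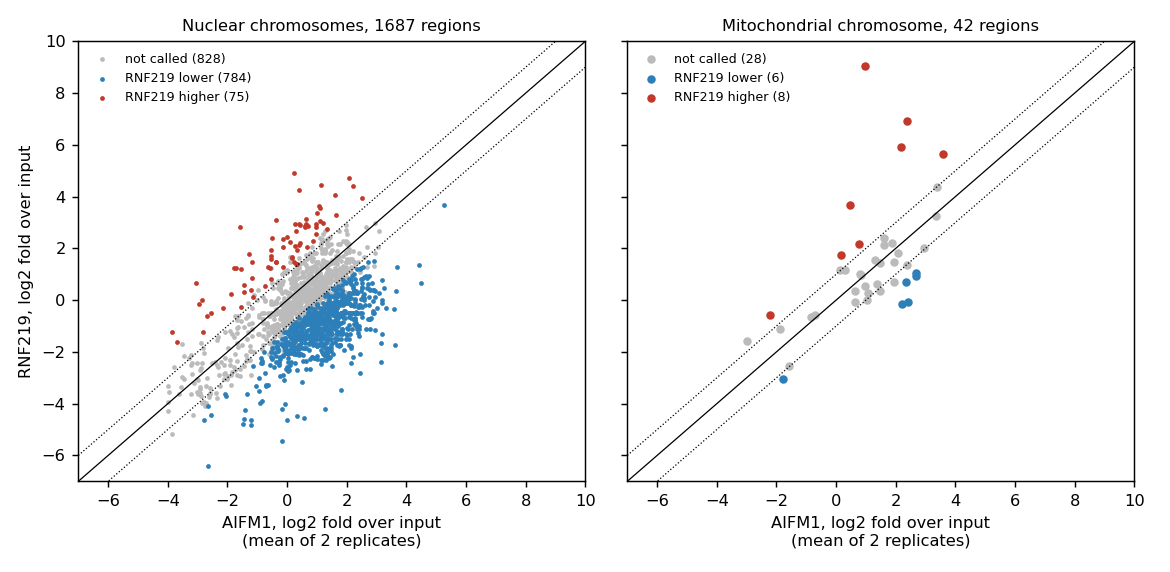
RNF219 log2 fold over input (y axis) against the mean of the 2 AIFM1 replicates (x axis), 1 point for each matched region, nuclear on the left and mitochondrial on the right. The solid line marks equal folds and the dotted lines a difference of 1; most of the 1687 nuclear points lie below the solid line, while 21 of the 42 mitochondrial points lie above it.

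The median of the chrM regions minus that of the nuclear regions was 1.54 in RNF219 and 0.33 and 0.94 in the AIFM1 replicates. RNF219 exceeded the AIFM1 mean of 0.637 ± 0.427 (SD, n = 2) by 0.906. With 3 ways to pick 1 library, the exact permutation p (2-sided) was 0.333, the smallest this design allows. The excess was 0.604 without AIFM1 replicate 1 and 1.21 without replicate 2, and it was 0.0542 over the regions with a -log10 p of at least 3 in at least 1 library.

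The largest upward differences on chrM were at 5 short regions of 31 to 41 nt. At chrM:15959-15989 on the - strand the log2 fold was 9.03 in RNF219, 0.09 in AIFM1 replicate 1 and 1.85 in replicate 2. RNF219 was high and both AIFM1 values were within 2 of the input. The RNF219 fold came from at least 748 eCLIP reads beside at least 1 input read. AIFM1 replicate 2 had 54 eCLIP reads beside 8 input reads there. For replicate 1 the recovered 24 input reads exceed those 8 although the input is shared. Its reads, 21 and 24, are thus too high, and only their ratio is known.

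At chrM:12170-12201 on the + strand RNF219 had 6.92, and AIFM1 had 1.58 and 3.20. Its longest RNF219 peak held at least 1999 eCLIP reads beside at least 12 input reads. At chrM:4420-4460 on the + strand the values were 5.91 in RNF219 and 1.83 and 2.53 in AIFM1, with at least 2507 RNF219 eCLIP reads beside at least 25 input reads. All 3 libraries were above input in both regions. The AIFM1 replicates lay closer to each other than to RNF219, as the rules for calling and naming regions largely required.

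At chrM:1618-1652 on the + strand RNF219 had 3.66, and AIFM1 had 0.09 and 0.85. Reads passed as settled in all 3 libraries here, with 162 RNF219 eCLIP reads beside 9 input reads. The 95% interval of RNF219 minus AIFM1 replicate 2, by reads, was 1.31 to 4.30 and lay above 0. For replicate 1 the interval was 2.28 to 4.85, which is too narrow. Its 24 recovered input reads exceed the 8 of replicate 2, which shares that input. At chrM:5828-5859 on the - strand RNF219 had 5.64, and AIFM1 had 3.25 and 3.90. This region was high in all 3 libraries, and RNF219 lay 2.07 above the AIFM1 mean.

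The other 3 chrM regions called higher were wider, from 91 to 186 nt, and differed less. At chrM:11207-11313 on the + strand the values were 2.16 in RNF219 and 1.01 and 0.54 in AIFM1. The interval of the difference by reads was 0.28 to 2.40 for replicate 1 and 0.71 to 2.82 for replicate 2. At chrM:14256-14441 on the - strand RNF219 had 1.73, and AIFM1 had -0.13 and 0.44. With the highest peak of each library in place of the mean, the values there were 1.73, 1.09 and 1.80, the difference was 0.29 and the call was lost. At chrM:2213-2303 on the + strand all 3 libraries were below input, with -0.58 in RNF219 and -2.59 and -1.83 in AIFM1.

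The calls on chrM were also counted by strand and width. All 3 matched regions on the - strand were called higher (2 of 3 with the highest peak of each library), with a median difference of 2.07, against 5 of 39 on the + strand, with a median difference of -0.12. Of the 14 chrM regions narrower than 50 nt 5 were called higher and 1 lower, and of the 28 wider ones 3 were called higher and 5 lower. Among nuclear regions 17 of 373 narrow ones and 58 of 1314 wide ones were called higher. These groupings were made after the values were seen, and no difference between them was tested.

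RNF219 was lower at 6 chrM regions, all on the + strand. At chrM:8135-8187 the log2 fold was -0.07 in RNF219, 2.09 in AIFM1 replicate 1 and 2.76 in replicate 2. At chrM:9512-9581 the values were -0.13 in RNF219 and 1.90 and 2.49 in AIFM1. In both regions RNF219 was at about the level of its input while AIFM1 was enriched, with 42 and 152 AIFM1 eCLIP reads beside 12 input reads in the first and 40 and 137 beside 13 in the second.

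At a pair of neighbouring regions, chrM:6203-6391 and chrM:6531-6605, both proteins were above input and AIFM1 was higher. The first had 1.06 in RNF219 and 2.45 and 2.93 in AIFM1. The interval of the difference by reads there was -2.80 to -0.65 for replicate 1 and -3.57 to -1.11 for replicate 2. The second had 0.70 in RNF219 and 2.14 and 2.52 in AIFM1, with intervals of -2.49 to -0.40 and -2.90 to -0.95. Between them, at chrM:6432-6530, the 3 libraries did not separate, with 1.82 in RNF219 and 1.87 and 2.31 in AIFM1.

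At chrM:3859-3921 RNF219 had 0.92, and AIFM1 had 2.28 and 3.10. Its interval against replicate 1, -3.29 to 0.56, included 0. At chrM:1865-1868, a region of 4 nt, all 3 libraries were below input, with -3.04 in RNF219 and -1.95 and -1.58 in AIFM1. When inputs were left out and eCLIP reads per nt were compared, the differences turned to 0.36 at chrM:3859-3921, 0.42 at chrM:6203-6391 and 0.04 at chrM:6531-6605.

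**Figure D2:**
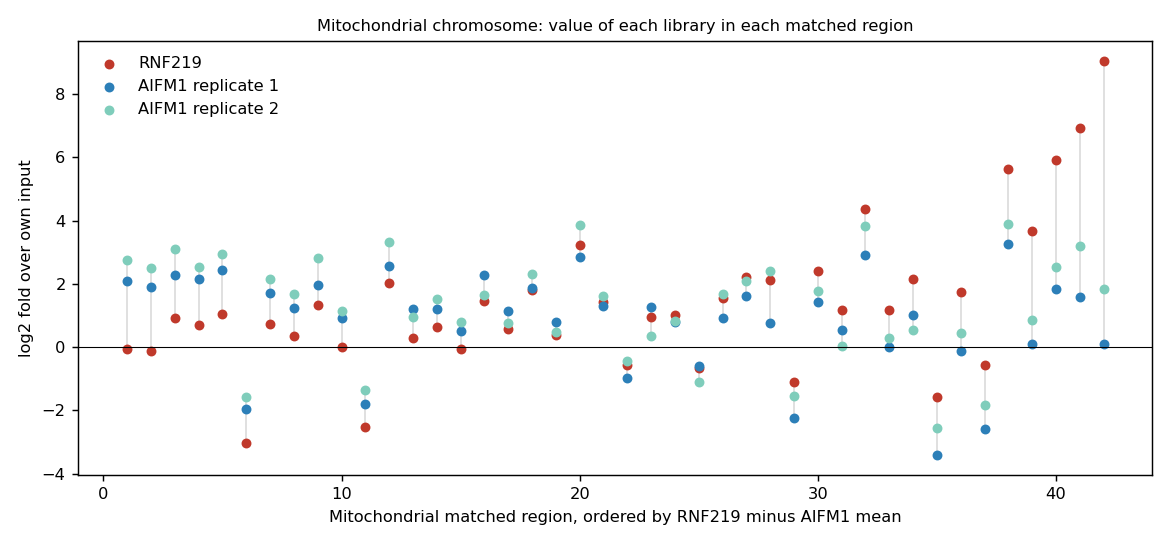
Log2 fold over own input (y axis) of RNF219 and both AIFM1 replicates in each of the 42 mitochondrial matched regions, ordered from the lowest to the highest difference (x axis); grey lines join the lowest and highest library. RNF219 was called higher in 8 regions and lower in 6, and the 5 regions at the right hold RNF219 values from 3.66 to 9.03.

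Most chrM regions were not called. The 28 others had a median difference of -0.08. Among them chrM:922-970 on the + strand was high in all 3 libraries, with 4.36 in RNF219 and 2.92 and 3.82 in AIFM1, and at least 4409 RNF219 eCLIP reads beside at least 178 input reads. At chrM:1266-1385 on the + strand the values were 3.24 in RNF219 and 2.84 and 3.87 in AIFM1. RNF219 lay between the AIFM1 replicates there.

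Matching left out many of the strongest RNF219 places on chrM. RNF219 had a peak in 128 of the 154 merged chrM regions, and AIFM1 in 59 and 80. RNF219 alone had a peak in 73 regions, with a median log2 fold of 2.76, against 1.03 in the matched ones. It reached 3 or more in 40 regions, of which 7 were matched and 29 were found in RNF219 alone. Peaks that abut without overlap were not joined, so some regions in these counts are pieces of 1 stretch. For example, the pieces from chrM:971-986 to chrM:1009-1013 run on from the matched region chrM:922-970. Each piece enters the counts and the median of 2.76, so the counts overstate the number of separate places. The highest values outside the matched regions were 8.45 at chrM:10009-10050 and 7.62 at chrM:597-635, both on the + strand, where AIFM1 replicate 2 had 2.49 and 4.18 and replicate 1 had no peak.

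Across chrM regions Spearman's rho between RNF219 and the AIFM1 replicates was 0.484 and 0.615, and between the AIFM1 replicates 0.895. Across nuclear regions it was 0.369 and 0.393, and 0.783 between the AIFM1 replicates. These are descriptions over 42 and 1687 regions, which are not replicates, and the AIFM1 replicates share an input whose counts enter both their folds.

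**Figure D3:**
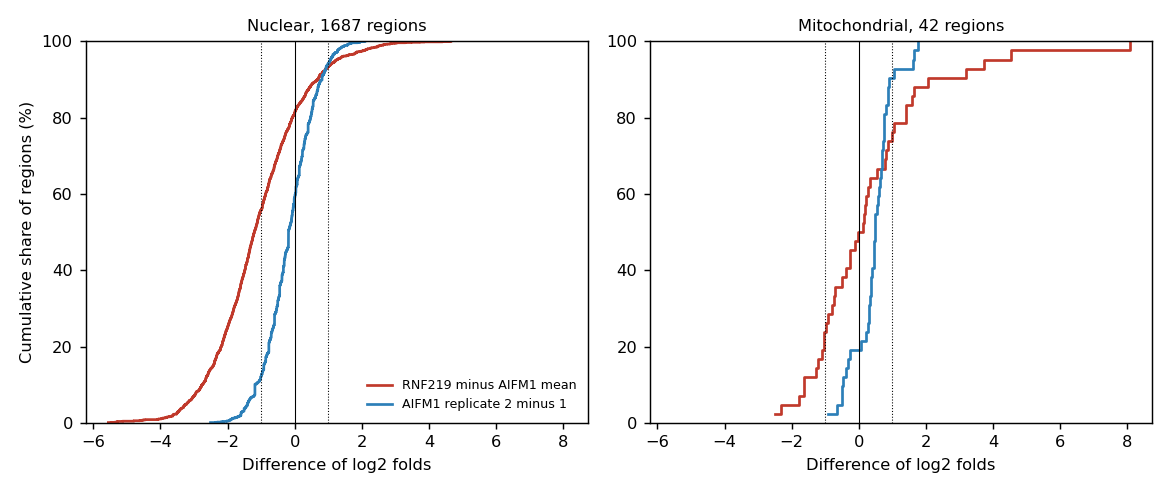
Cumulative share of regions (y axis, %) by the difference of log2 folds (x axis), for RNF219 minus the AIFM1 mean and for AIFM1 replicate 2 minus replicate 1; dotted lines mark -1 and 1. The nuclear RNF219 curve is shifted to the left, with a median of -1.20, while the mitochondrial one has a median of 0.05 and a tail up to 8.06.

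Nuclear regions in which RNF219 was higher were few and mostly showed RNF219 enrichment beside AIFM1 near or below input. RNF219 was above input in 66 of the 75, both AIFM1 replicates were below input in 33, and both were above it in 29. Over all nuclear matched regions 37 (2.19%) had RNF219 above input and both AIFM1 replicates below it. The medians over the 75 regions were 2.04 in RNF219 and 0.06 and -0.17 in AIFM1. Of the 21 nuclear regions (1.24%) with a significant RNF219 peak, meaning -log10 p and log2 fold of at least 3, 16 were called higher. That share follows largely from the choice, since such a peak needs a high RNF219 fold.

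The largest upward difference was at chr17:27047577-27047638 on the + strand, with 4.90 in RNF219, 0.50 in AIFM1 replicate 1 and -0.03 in replicate 2. RNF219 had 210 eCLIP reads beside 6 input reads, and its interval against AIFM1 replicate 1 was 2.15 to 6.07. RNF219 was far above its input, and AIFM1 was near the level of its own.

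At chr1:173833514-173833575 on the - strand RNF219 had 2.84, and AIFM1 had -1.01 and -2.13. The longer of 2 RNF219 peaks held 74 eCLIP reads beside 6 input reads. At chr5:179045146-179045330 on the - strand the values were 4.27 in RNF219 and -0.01 and 0.83 in AIFM1. Here the longer of 2 RNF219 peaks held 30 eCLIP reads beside 1 input read, and its interval against AIFM1 replicate 2 was 0.54 to 6.58.

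At chr7:26237038-26237081 on the - strand all 3 libraries were above input, with 4.44 in RNF219 and 0.87 and 1.42 in AIFM1. Its RNF219 fold came from 1 input read, and both intervals, -0.29 to 7.44 and -0.59 to 6.64, included 0. At chr15:66795836-66795868 on the - strand RNF219 had 3.11, with 37 eCLIP reads beside 3 input reads, and AIFM1 had -0.13 and -0.58.

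Several of the 10 largest upward differences had well-filled RNF219 peaks and AIFM1 below its input. At chr11:122930040-122930135 on the - strand RNF219 had 1.77, from 278 eCLIP and 57 input reads, and AIFM1 had -0.53 and -1.99. At chr11:62622763-62622836 on the - strand RNF219 had 1.25, from 274 and 81 reads, and AIFM1 had -1.27 and -2.31. At chr1:45196746-45196795 on the - strand RNF219 had 1.24, from 250 and 74 reads, and AIFM1 had -1.87 and -1.58. That the groups did not overlap in these 3 regions follows from the rule for calling.

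At chr1:76253568-76253656 on the + strand the values were 2.40 in RNF219 and -0.46 and -0.53 in AIFM1. At chrX:118921315-118921442 on the - strand RNF219 was only slightly above input, at 0.67, and AIFM1 was depleted, at -3.11 and -2.98. The longest of 3 RNF219 peaks there had -0.21.

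Nuclear regions in which RNF219 was lower mostly showed RNF219 below its input and AIFM1 above. This held for 562 of the 784 for both AIFM1 replicates, and for 662 (39.2%) of all nuclear matched regions. The medians were -0.96 in RNF219 and 1.28 and 1.10 in AIFM1. Of the nuclear regions with a significant AIFM1 peak, 8 of 9 for replicate 1 (0.533% of all nuclear matched regions) were called lower. For replicate 2 it was 16 of 19 (1.13%). These shares follow largely from choosing regions by a high AIFM1 fold.

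At chr5:79946599-79946644 on the - strand RNF219 had -2.41, and AIFM1 had 2.60 and 3.69. At least 7 RNF219 eCLIP reads stood beside at least 26 input reads there, and AIFM1 had 15 and 73 eCLIP reads beside 3 input reads. At chr11:16863807-16863885 on the + strand RNF219 had -1.73, and AIFM1 had 3.60 and 3.64, with 20 and 42 eCLIP reads beside 2 input reads. Both AIFM1 replicates were significant in this region.

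At chr14:90178936-90179010 on the + strand RNF219 had -4.21, and AIFM1 had 1.24 and 1.27. At chr22:29196398-29196466 on the - strand the values were -3.48 in RNF219 and 1.28 and 2.33 in AIFM1. At chr19:50985492-50985547 on the + strand they were -2.83, 2.60 and 2.27, with 1 AIFM1 input read. The AIFM1 replicates were both enriched and RNF219 depleted in each of these 3 regions.

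In other regions with large differences AIFM1 was close to input and RNF219 far below. At chr7:128337533-128337576 on the + strand RNF219 had -5.46, the lowest of the named regions, and AIFM1 had -0.50 and 0.17. At chr6:126301034-126301082 on the - strand the values were -4.56 in RNF219 and 0.42 and 0.71 in AIFM1. At chr16:68776374-68776449 on the + strand they were -4.46, 0.01 and 0.66.

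At chr12:13199072-13199130 on the + strand RNF219 had -4.63, and AIFM1 had 0.25 and -0.28. The longest of its peaks there held 175 and at least 322 eCLIP reads beside 193 input reads. At chr5:134696065-134696179 on the - strand RNF219 had -1.65, and AIFM1 had 3.60 and 2.68 from 10 and 12 eCLIP reads beside 1 input read.

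**Figure D4:**
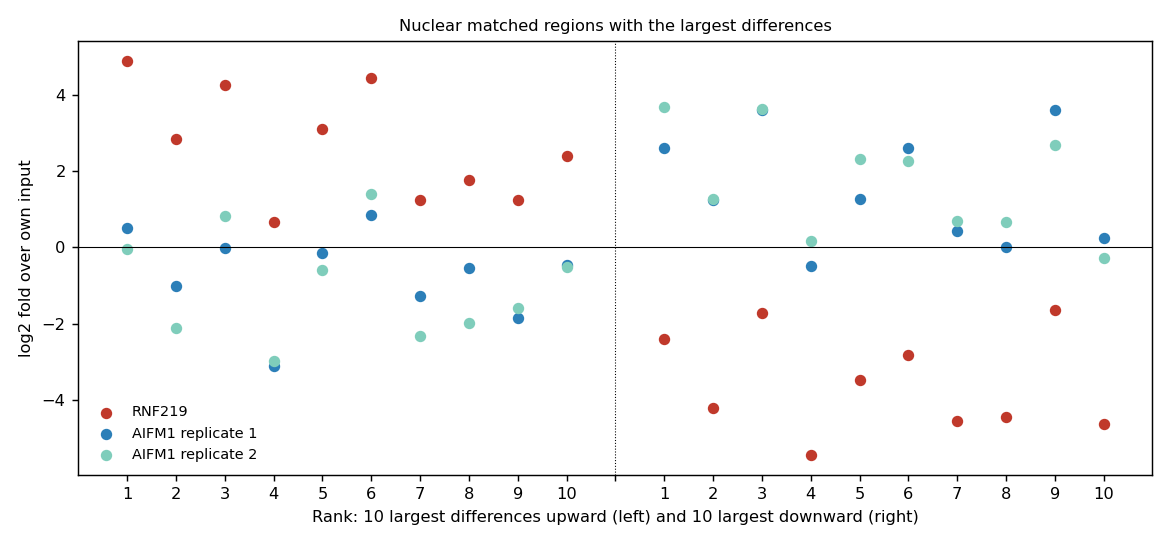
Log2 fold over own input (y axis) of the 3 libraries in the 10 nuclear regions with the largest differences upward (left) and the 10 downward (right), by rank (x axis). In all 20 regions the AIFM1 replicates differ by less than their mean differs from RNF219, as the rule for naming them required.

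Only 1 nuclear region (0.0593%) was significant in all 3 libraries, against 2 on chrM (4.76%). It was chr6:31958259-31958282 on the + strand, with 3.66 in RNF219 and 5.77 and 4.77 in AIFM1. The longest peaks held 1 input read beside 18, 45 and 59 eCLIP reads, and the intervals of the difference, -6.19 to 1.96 and -5.39 to 2.75, included 0. All 8 libraries of the other proteins were higher than RNF219 and AIFM1 replicate 2 at this place, with values from 5.26 to 7.48. AIFM1 replicate 1 lay above only ZNF184 replicate 1, which had 5.26. The 2 chrM regions were chrM:5828-5859 and chrM:922-970.

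Counting error covers most of the calls that can be checked. Reads were settled in all 3 libraries for 396 nuclear and 21 chrM regions, whose longest peaks by construction lie above input in all 3. Among these, 17 nuclear regions were called higher, and the interval of the difference lay above 0 against both AIFM1 replicates in 4 of them. Of 91 called lower, 9 had both intervals below 0. On chrM it was 2 of 2 higher and 2 of 3 lower.

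One of the 4 nuclear regions was chr3:96336812-96336857 on the - strand, with 2.87 in RNF219 and 0.28 and 1.15 in AIFM1. Another was chrX:107966612-107966698 on the - strand, with 2.92 in RNF219 and 0.66 and 0.19 in AIFM1. These 2 were chosen for naming after their values were seen.

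The gap to the nearer AIFM1 replicate was 1.001 just inside the call threshold and 0.9998 just outside it. Among the called regions with the smallest differences, chr19:1438808-1438893 on the + strand had 0.44 in RNF219 and 1.51 and 1.58 in AIFM1. At chr22:29687535-29687583 on the + strand the values were 0.49, 1.60 and 1.56. At chr7:102274747-102274842 on the - strand they were -0.34, 0.70 and 0.68. A difference of the opposite sign, 1.09, was seen at chr9:125642502-125642577 on the - strand, with 1.39 in RNF219 and 0.28 and 0.32 in AIFM1.

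Nuclear regions gathered in loci, here regions on 1 strand at most 10 kb apart. The 1687 regions fell into 970 loci, of which 655 held 1 region and 47 held at least 5. A region called higher occurred in 64 loci and one called lower in 568, and 18 loci held both. No locus had more than 2 regions called higher. Among the 47 larger loci the median difference was below 0 in 40 and above 0 in 7.

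The locus with most matched regions, chr11:65190376-65212742 on the + strand, held 31. RNF219 was called lower in 15 of them and higher in 0, with medians of -0.76 in RNF219 and 0.61 and 0.23 in AIFM1. At chr16:31191465-31202434 on the + strand 5 of 6 regions were called lower, with medians of -0.43, 1.25 and 1.77. The RNF219 medians were below input and the AIFM1 medians above it in both loci. The locus with the next most regions, on the - strand of chrX, held 29. Of these 1 was called higher and 4 lower, with a median difference of -0.095. Loci of 15 regions at chr11:65266517-65273455 (+ strand) and chrX:73041462-73051052 (- strand) had median differences of -0.75 and 0.27.

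Other loci held calls in the other direction or were mixed. At chr7:26233193-26239504 on the - strand 2 of 9 regions were called higher and 0 lower, with medians of 0.63 in RNF219 and 0.60 and 0.87 in AIFM1. The median difference there was 0.046. Both regions called higher rested on 1 RNF219 input read, and their intervals against each AIFM1 replicate included 0. At chr1:173833514-173836863 on the - strand 2 of 6 were called higher and 1 lower, and the differences ran from -1.17 to 4.41. At chr22:38880026-38902203 on the - strand 1 of 10 was called higher and 4 lower, with differences from -1.95 to 2.68. Neighbouring regions of 1 locus could thus differ in opposite directions.

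The same regions were then looked up in the 8 libraries of NUMA1, RANGAP1, VIM and ZNF184. All of these regions were kept for a peak in RNF219 and both AIFM1 replicates, so the 8 libraries are compared at places chosen on the other 3. On chrM RNF219 was above every other library with a peak in 32 of 42 regions, and both AIFM1 replicates were in 26 of 42. In the chrM regions called lower RNF219 still exceeded all others in 4 of 6, and both AIFM1 replicates did in 5 of 6. The medians of the 8 libraries over the chrM regions ran from -0.92 in RANGAP1 replicate 2 to -0.16 in NUMA1 replicate 2, all below input.

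In the 8 chrM regions called higher, RNF219 had a median of 4.65. VIM had 1.86 and 2.81 there and NUMA1 had 0.97 and 0.86, above the AIFM1 replicate 1 median of 0.55. RNF219 exceeded all 8 libraries in 6 of these regions. At chrM:1618-1652 it exceeded 5 of the 8.

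In nuclear regions with a peak in at least 4 of the 8 libraries, RNF219 was below all of them in 728 of 1527 and above all in 125. Both AIFM1 replicates were above all of the 8 in 205 of 1527. Over all nuclear matched regions the RNF219 median of -0.51 was the lowest of the 11 libraries, and the ZNF184 replicate 2 median of 1.38 the highest. In the 75 nuclear regions called higher ZNF184 had medians of 1.17 and 2.47, and RANGAP1 had -0.83 and -1.14. The RNF219 median there, 2.04, lay between the ZNF184 replicates.

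**Figure D5:**
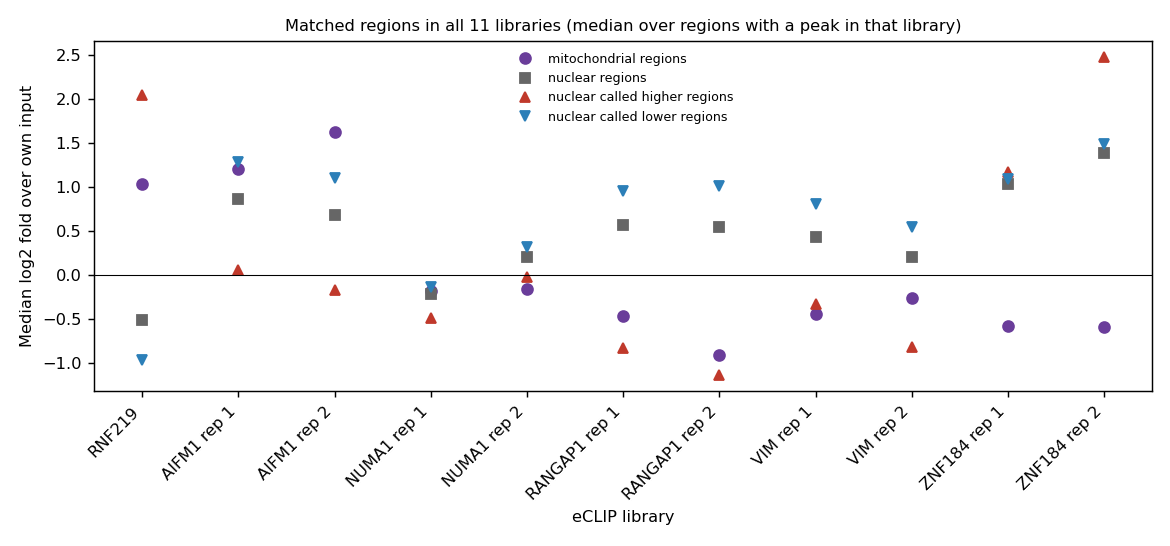
Median log2 fold over own input (y axis) of each of the 11 eCLIP libraries (x axis) over the matched regions with a peak in that library, for mitochondrial regions, nuclear regions and nuclear regions called higher or lower. Only RNF219 and AIFM1 have mitochondrial medians above 0, and RNF219 has the lowest nuclear median, -0.51. All regions shown were kept for a peak in RNF219 and both AIFM1 replicates. The called sets were chosen on RNF219 and AIFM1 values, so their values in these 3 libraries follow from the choice.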

How the data were processed

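Peak lists of 3 eCLIP libraries from 293T cells were used, with those of 8 others for comparison. Per the submitters' processing notes the build was hg19 and the tools included STAR, cutadapt, SAMtools, Picard and GATK. No source used here names a peak caller. The deposited lists give, for each peak, the authors' -log10 p, which is 0 below input and capped at 400, and the authors' log2 fold over the size-matched input. Peaks were deposited per library, not pooled.

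Peaks were merged in Python 3.11 with pandas and SciPy. Reads were recovered as whole-number ratios to within 1e-09 (log2), settled by p to within 0.005. For folds near input this could settle on too high a multiple. Intervals of differences are 95% Wald intervals on these reads, taken from the longest peak of each library in the region. Steps were tested on simulated data.

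Regions named are the 10 largest and 10 smallest differences on nuclear chromosomes and on chrM among called regions whose AIFM1 replicates differ by less, regions significant in all 3 libraries, the 5 highest means and the 5 called regions closest to 0; 1 of these last is not reported here. The regions, rules and groupings were chosen with earlier results of these data known. Planned gene lists and RNA classes were not applied, since no hg19 annotation was used here.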

Additional observations from a re-analysis of the deposited data

Results flagged for a closer look

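In 18 of the named regions RNF219 and both AIFM1 replicates lay on opposite sides of their inputs. With 1 RNF219 library these differences were not tested. RNF219 was above input and both AIFM1 replicates below it at chr1:173833514-173833575 (RNF219 2.84), chr15:66795836-66795868 (3.11), chr1:76253568-76253656 (2.40), chr11:122930040-122930135 (1.77), chr11:62622763-62622836 (1.25), chr1:45196746-45196795 (1.24) and chrX:118921315-118921442 (0.67).

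The opposite held at chr6:126301034-126301082 (RNF219 -4.56), chr16:68776374-68776449 (-4.46), chr14:90178936-90179010 (-4.21), chr22:29196398-29196466 (-3.48), chr19:50985492-50985547 (-2.83), chr5:79946599-79946644 (-2.41), chr11:16863807-16863885 (-1.73), chr5:134696065-134696179 (-1.65) and chr7:102274747-102274842 (-0.34). On chrM it held at chrM:9512-9581 (-0.13) and chrM:8135-8187 (-0.07). Over all nuclear matched regions 37 (2.19%) showed the first pattern and 662 (39.2%) the second.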

How the results depend on the processing

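Centring each library on its nuclear median adds the same amount to every difference. By construction more regions are then called higher, fewer lower, and small negative differences change sign. It gave 318 nuclear regions higher and 218 lower, a nuclear median difference of 0.085 in place of -1.20, 21 chrM regions higher and 0 lower, and a chrM median difference of 1.33. Of the nuclear calls 59.3% were then higher, against 8.73%. Differences that changed sign in this way were those at chrM:1865-1868 (0.01), chr7:102274747-102274842 (0.25), chr22:29687535-29687583 (0.19) and chr19:1438808-1438893 (0.18).

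With inputs left out, over the 371 nuclear and 21 chrM regions with settled reads, which changes the regions as well as the measure, 32 nuclear regions were higher and 18 lower (median -0.103), and 4 chrM regions higher and 0 lower (median 0.305). Differences turned at chrM:3859-3921 (0.36), chrM:6531-6605 (0.04) and chrM:6203-6391 (0.42). With a -log10 p of at least 3 in at least 1 library 44 nuclear regions were higher and 86 lower (median -0.445). With at least 10 input reads in all 3 libraries 17 were higher and 147 lower among 347 (median -0.989), and 5 chrM regions were higher. At a difference of 2 there were 24 higher and 306 lower, and 4 and 2 on chrM. With exactly 1 peak in each file 2 of 17 chrM regions were higher and the chrM median difference was -0.394. Fewer regions enter these last settings, or the threshold is higher, by construction.

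Leaving out an AIFM1 replicate gave 101 to 137 nuclear regions higher, 887 to 973 lower, a nuclear median of -1.26 to -1.09, 9 to 13 chrM regions higher, 6 to 12 lower, a chrM median of -0.155 to 0.0281 and a chrM excess of 0.604 to 1.21. The excess stayed positive in every setting run, from 0.0542 upward. Of 322 values of the 41 named regions 263 moved by less than the SD of the AIFM1 replicates, 52 by more and 7 changed sign. Loci at most 2000 nt apart, an alternative added after seeing the data, gave 1134 loci, 15 with both kinds of call. The cause of these changes was otherwise not tested. No paired analysis was possible because RNF219 had 1 library. Differences by class of RNA were not run, since regions carried no gene annotation.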
